A study of Mus musculus with 8 samples.

Results

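S100 proteins and annexins, represented here by 10 genes, were described in RNA of mouse cardiac fibroblasts with and without Lmna. The 10 genes are S100a1, S100a4, S100a6, S100a10, S100a11, S100a13, S100a16, Anxa1, Anxa2 and Anxa6, taken by symbol from the 18957 genes listed in the count tables. They are 7 of 15 listed S100 genes and 3 of 11 listed annexin genes, and all 10 passed the filter on low counts that left 13036 genes for testing. The genes were chosen by family and with their levels and genotype fold changes in these libraries already known, so the fold changes and adjusted p values of the 10 genes below describe the fit over all genes and are not independent evidence.

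The libraries were made from ventricular cells of 3- to 4-week-old mice, sorted for PDGFRA, a surface receptor of fibroblasts, and for the absence of hematopoietic lineage markers. One group of 4 libraries is Pdgfra-Cre:LmnaF/F, in which Cre from a Pdgfra BAC transgene removes the floxed exon of both Lmna alleles. The other 4 libraries are WT, from littermates with wild-type alleles alone, and both groups are on a background labelled C57BL/6 (mixed). The Pdgfra locus is also active in some cardiac myocytes during development, so the deletion is not limited to fibroblasts, and libraries of mice with Cre alone were not analysed here. Lmna itself, which encodes the lamins A and C of the nuclear envelope, lay between 273.7 and 482.9 CPM (reads of a gene per 1000000 reads, scaled by TMM factors) in WT and between 90.4 and 130.0 in Pdgfra-Cre:LmnaF/F, a log2 fold change of -1.72 (SE 0.22, adjusted p = 0.00492, edgeR). Library totals ran from 2080555 reads in WT replicate 2 to 12502949 in Pdgfra-Cre:LmnaF/F replicate 4, and the latter library stood apart in markers of cardiomyocytes and leukocytes, whose values are given with S100a1.

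S100 proteins are small EF-hand proteins that bind calcium, expose a hydrophobic surface and then dock onto other proteins, mostly as dimers. Annexins bind the acidic phospholipids of membranes in the presence of calcium, and several of them carry an S100 dimer on a short N-terminal tail. The best known pair is annexin A2 with S100A10 (p11), which gathers plasminogen and its activators at the cell surface and links the membrane to the cortical actin. S100A11 pairs with annexin A1 and S100A6 with several annexins, and the complexes take part in membrane traffic and in sealing of membrane wounds. In fibroblasts S100A4 (FSP1) and S100A6 have been used as markers of activation and of proliferation, while S100A1 is the S100 protein of cardiac myocytes.

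Of the 10 genes, S100a11 alone fell in Pdgfra-Cre:LmnaF/F fibroblasts at an adjusted p under 0.05. That is 1 of 10, where 0.407% of all 13036 genes tested were called in either direction and 0.238% were called lower. At an unadjusted p under 0.05 there were 4 of the 10 genes (S100a6, S100a10, S100a11 and S100a16), where 11.9% of all genes reached it. The fitted fold change was above 0 for S100a1, S100a4, S100a6 and Anxa1 and below 0 for the other 6, with a median of -0.20 on the log2 scale beside 0.02 for all genes. In bulk samples such as these, fewer cells that express a gene and less RNA of it per cell cannot be told apart.

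S100a11 encodes a homodimeric S100 protein that binds annexins A1 and A2 and follows them to injured plasma membrane. Its levels were 82.9, 97.6, 83.9 and 111.2 CPM in WT replicates 1 to 4. In Pdgfra-Cre:LmnaF/F replicates 1 to 4 they were 36.9, 40.7, 23.5 and 25.7 CPM. Every Pdgfra-Cre:LmnaF/F library thus lay below every WT library. Groups without overlap were found for this gene alone among the 10, where 8.03% of all genes tested had such a gap in either direction and 3.97% had it with lower values in Pdgfra-Cre:LmnaF/F. The group means were 93.9 ± 13.4 and 31.7 ± 8.40 CPM (SD, n = 4 each). The log2 fold change was -1.57 (SE 0.24, 95% interval -2.08 to -1.06, adjusted p = 0.0146, edgeR), or 33.8% of the WT level. The gene rests on 194 to 1074 reads in WT and 204 to 390 in Pdgfra-Cre:LmnaF/F. Without WT replicate 4, which has the highest level, the fold change was -1.47 and the adjusted p was 0.0522, so the call was lost, and it was kept in each of the other 15 alternative analyses. Without WT replicate 2 and Pdgfra-Cre:LmnaF/F replicate 4 together, a setting added after the data were seen, the fold change was -1.46 and the adjusted p 0.0455 (edgeR).

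The start of S100a11 lies at chr3:93520488 on the plus strand of GRCm38, and the gene ends at 93526287. The 242 bases before it (chr3:93520246-93520487, plus strand, RefSeq on GRCm38.p6) are shown because S100a11 is the gene on which the comparison turns. Capitals mark matches to TGANTCA, the letters of the AP-1 site, and to GGGCGG, the GC box bound by Sp1 and related factors.

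S100a11 upstream: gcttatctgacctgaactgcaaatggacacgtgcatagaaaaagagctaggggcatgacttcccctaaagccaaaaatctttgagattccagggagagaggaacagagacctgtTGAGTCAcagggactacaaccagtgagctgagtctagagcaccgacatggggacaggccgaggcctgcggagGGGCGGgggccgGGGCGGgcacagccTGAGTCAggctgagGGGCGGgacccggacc

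The stretch holds 2 matches to TGANTCA and 3 to GGGCGG, and none to TATAAA, searched on both strands. Over 250 bases before the start, TGANTCA occurred in 6.75% of 32851 mouse promoters, GGGCGG in 32.7% and TATAAA in 12.4%. The windows of Anxa2 and S100a16 also held TGANTCA and GGGCGG, while those of S100a4, Anxa1 and Anxa2 held TATAAA. Windows were at hand for 8 of the 10 genes, with 9 windows in all since S100a16 has a pair of starts. These are matches of letters and were not tested for binding.

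**Figure D1:**
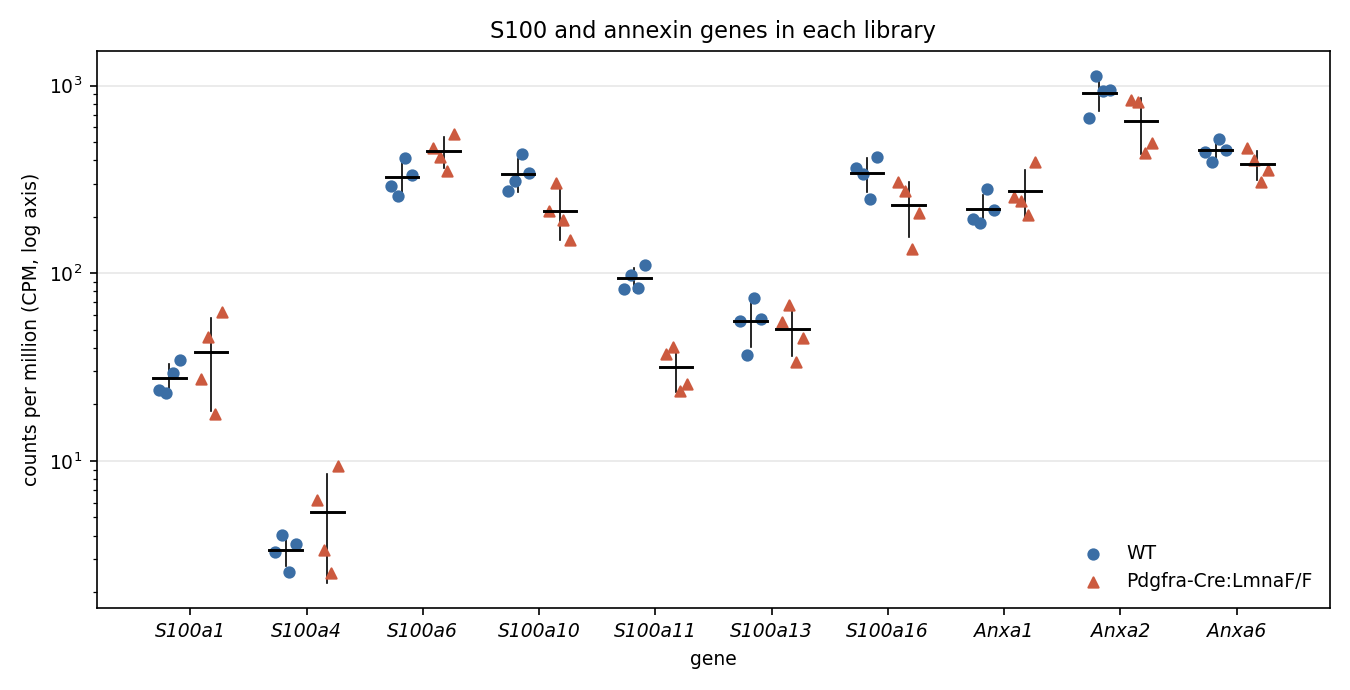
Level of each of the 10 genes in each library, as CPM on a log axis, with circles for WT and triangles for Pdgfra-Cre:LmnaF/F (4 libraries each), a horizontal line at the mean and a vertical line of 1 SD to either side. The groups separate for S100a11, at 82.9 to 111.2 against 23.5 to 40.7 CPM, and overlap for the other 9 genes.

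S100a10 and Anxa2 encode the chains of the p11 and annexin A2 heterotetramer. S100a10 was at 275.2, 309.4, 433.5 and 341.0 CPM in WT replicates 1 to 4 and at 213.8, 304.2, 192.6 and 150.0 CPM in Pdgfra-Cre:LmnaF/F replicates 1 to 4. Only Pdgfra-Cre:LmnaF/F replicate 2 reached into the WT range. With a log2 fold change of -0.66 (SE 0.24, 95% interval -1.16 to -0.16) and an adjusted p of 0.271 (edgeR), the difference did not pass the test. Anxa2 was at 669.1, 1123, 933.1 and 943.9 CPM in WT and at 832.4, 818.8, 435.5 and 491.4 CPM in Pdgfra-Cre:LmnaF/F, again in order of replicate. Replicates 3 and 4 of Pdgfra-Cre:LmnaF/F were low, whereas replicates 1 and 2 lay inside the WT range. The log2 fold change of Anxa2 was -0.51 (SE 0.25, 95% interval -1.05 to 0.03, adjusted p = 0.458, edgeR).

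The counts of S100a10 over those of Anxa2 gave a ratio within each library that does not depend on scaling. It was 0.411, 0.276, 0.465 and 0.361 in WT and 0.257, 0.372, 0.442 and 0.305 in Pdgfra-Cre:LmnaF/F. The ranges overlapped almost whole, and the means were 0.378 ± 0.0803 and 0.344 ± 0.0806 (SD, n = 4 each). In profiles of log2 CPM centred on each gene's mean over the 8 libraries, S100a10 stood 389th among the 13035 other genes by its mean absolute difference from Anxa2 (0.26, where the median gene stood at 0.56). This was not particular to the pair, since Anxa6 stood 388th, also at 0.26, and S100a16 was at 0.27.

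Anxa1 encodes annexin A1, the glucocorticoid-induced annexin that also acts outside the cell on formyl peptide receptors. It was at 194.2, 185.7, 279.5 and 216.0 CPM in WT and at 253.9, 243.7, 204.1 and 390.3 CPM in Pdgfra-Cre:LmnaF/F. Replicate 4 of Pdgfra-Cre:LmnaF/F was the highest, and without it the log2 fold change went from 0.32 (SE 0.23, adjusted p = 0.651, edgeR) to 0.09. The ratio of S100a11 to Anxa1 counts, taken since S100A11 docks onto annexin A1 and chosen after the values were seen, was 0.427, 0.526, 0.300 and 0.515 in WT and 0.145, 0.167, 0.115 and 0.0658 in Pdgfra-Cre:LmnaF/F. The mean ratio was 0.442 ± 0.104 in WT and 0.123 ± 0.04385 in Pdgfra-Cre:LmnaF/F (SD, n = 4 each), and the groups did not overlap. It falls as S100a11 itself does, and is a description.

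Anxa6, a large annexin with a doubled core that lines the plasma membrane and endosomes, was at 441.2, 389.5, 518.8 and 455.1 CPM in WT. In Pdgfra-Cre:LmnaF/F it was at 464.1, 399.0, 306.8 and 353.1 CPM, for a log2 fold change of -0.25 (SE 0.20, 95% interval -0.67 to 0.18, adjusted p = 0.701, edgeR). Its spread within WT, a coefficient of variation of 11.8%, was the smallest of the 10 genes.

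S100a6 (calcyclin), which binds the ubiquitin ligase adaptor CACYBP and annexins, was at 290.6, 259.1, 409.8 and 335.0 CPM in WT and at 464.7, 417.7, 352.2 and 555.1 CPM in Pdgfra-Cre:LmnaF/F. The 3 highest values were all from Pdgfra-Cre:LmnaF/F, and replicate 3 lay within the WT range. A log2 fold change of 0.47 (SE 0.21, 95% interval 0.01 to 0.92) came with an adjusted p of 0.406 (edgeR). S100a16, an S100 protein whose EF hands bind calcium weakly, pointed the other way. It was at 361.9, 338.6, 248.9 and 415.3 CPM in WT and at 307.7, 274.9, 134.9 and 209.2 CPM in Pdgfra-Cre:LmnaF/F. The groups overlapped through WT replicate 3, and the log2 fold change was -0.56 (SE 0.26, 95% interval -1.10 to -0.01, adjusted p = 0.405, edgeR).

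S100a13, which aids the release of FGF1 and IL1A outside the classical secretory route, was at 55.5, 36.7, 73.7 and 56.9 CPM in WT and at 55.2, 67.4, 33.6 and 45.3 CPM in Pdgfra-Cre:LmnaF/F. The ranges were nearly the same, and the log2 fold change was -0.15 (SE 0.27, 95% interval -0.73 to 0.42, adjusted p = 0.887, edgeR). S100a4 was the least abundant, at 3.27, 4.03, 2.56 and 3.62 CPM in WT and 6.21, 3.34, 2.53 and 9.42 CPM in Pdgfra-Cre:LmnaF/F, which are 8 to 113 reads per library. Its log2 fold change of 0.68 had an SE of 0.79 and an adjusted p of 0.822 (edgeR). The low level of S100a4 is uncertain, since 302 of its 584 exon bases (51.7%) in GENCODE M21 are shared with exons of Gm42674 on the same strand. Reads on bases of 2 genes can be left uncounted or given to either, Gm42674 is not among the symbols listed, and the setting used was not given in the sources used here. None of the other 9 genes shared exon bases with a gene on its own strand, and Anxa2 shared 98 bases with Gm16144 on the opposite strand.

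S100a1 was at 23.9, 23.1, 29.4 and 34.5 CPM in WT and at 27.4, 45.5, 17.7 and 62.2 CPM in Pdgfra-Cre:LmnaF/F. Its lowest and highest values both came from Pdgfra-Cre:LmnaF/F, with a coefficient of variation of 51.6% there and 19.1% in WT. The log2 fold change was 0.46 (SE 0.35, adjusted p = 0.681, edgeR), and 0.12 without replicate 4 of Pdgfra-Cre:LmnaF/F. That library stood apart in the summed level of 8 cardiomyocyte markers, at 5710 CPM, where the other 3 Pdgfra-Cre:LmnaF/F libraries lay between 328.2 and 903.7 CPM and the WT libraries between 718.5 and 1059 CPM. Its Myh6 level was 2046 CPM and that of the other 7 libraries was 97.5 to 368.2 CPM. The same library had the highest summed level of 9 leukocyte markers, at 413.2 CPM against 51.7 to 96.35 in the other Pdgfra-Cre:LmnaF/F libraries and 39.7 to 169.8 in WT. It also had the highest levels of S100a4, S100a6 and Anxa1. Without this library and WT replicate 2 the log2 fold changes were 0.05 for S100a1, 0.35 for S100a4, 0.25 for S100a6 and 0.02 for Anxa1, and the part of other cells in these values was not tested.

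S100a1 and S100a13 lie head to head on chromosome 3. There are 42 bases between the start of S100a1, which is read from the minus strand, and the start of S100a13. These bases (chr3:90514393-90514434, plus strand, RefSeq on GRCm38.p6) are shown because both genes start at their edges.

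S100a1 to S100a13: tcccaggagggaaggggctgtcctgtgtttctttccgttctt

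None of the motifs searched before S100a11 was matched by these letters. Among WT libraries both genes were lowest in replicate 2, where S100a1 was close to its level in replicate 1, and the highest was replicate 4 for S100a1 and replicate 3 for S100a13. Among Pdgfra-Cre:LmnaF/F replicates 1 to 3 both were highest in replicate 2 and lowest in replicate 3. In Pdgfra-Cre:LmnaF/F replicate 4, the library with high cardiomyocyte markers, S100a1 was at its highest and S100a13 was at 45.3 CPM, below its WT mean of 55.7 CPM.

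**Figure D2:**
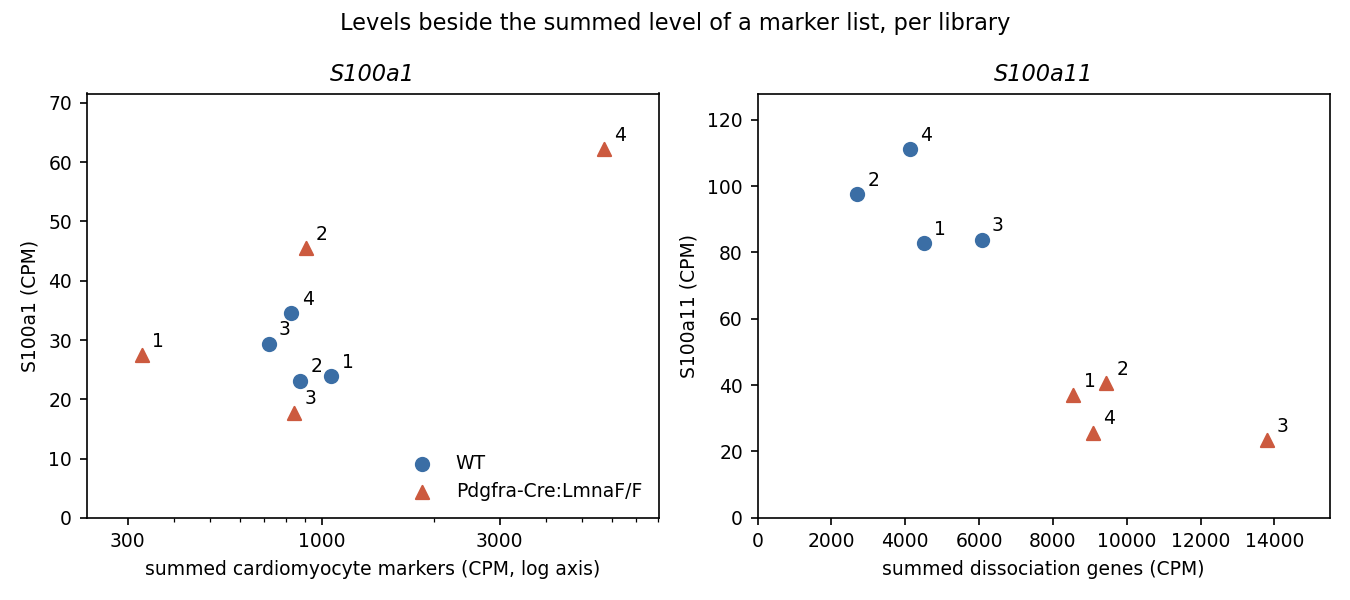
Left, S100a1 in CPM against the summed CPM of 8 cardiomyocyte markers on a log axis; right, S100a11 in CPM against the summed CPM of 18 genes induced by tissue dissociation. Each point is 1 library with its replicate number, circles for WT and triangles for Pdgfra-Cre:LmnaF/F. Replicate 4 of Pdgfra-Cre:LmnaF/F is alone at 5710 CPM on the left, and on the right the groups separate along both axes.

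Several other measures moved with S100a11. The summed level of 18 genes that dissociation of tissue induces, among them Fos, Jun and Junb of the AP-1 family, separated the groups. It was 2694 to 6069 CPM in WT and 8553 to 13790 CPM in Pdgfra-Cre:LmnaF/F. Of the 18, 3 rose at an adjusted p under 0.05 (edgeR), where 0.407% of all genes were called in either direction. The list was written with earlier results of these data known, so the sum is not an independent measure of handling. Whether it reflects handling or genotype was not tested. The summed level of 6 endothelial markers was 531.3 to 715.9 CPM in WT and 405.8 to 493.7 CPM in Pdgfra-Cre:LmnaF/F, and none of the 6 passed the test. The 9 fibroblast markers summed to between 84440 and 100000 CPM in WT and between 82650 and 95600 CPM in Pdgfra-Cre:LmnaF/F, so the labelled cell type is present in every library. Mural markers (5 genes, 173.5 to 310.2 and 161.4 to 304.7 CPM), Schwann cell markers (4 genes, 0.799 to 11.3 and 1.88 to 10.8 CPM) and epicardial markers (4 genes, 8.47 to 37.2 and 6.67 to 14.3 CPM) overlapped between WT and Pdgfra-Cre:LmnaF/F. No marker on these lists was at 0 in all 8 libraries, and their part in the S100a11 difference was not tested.

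Reads of 4 Y-linked genes, summed over the list, were above 10 CPM in 3 of 4 WT libraries and in 1 of 4 Pdgfra-Cre:LmnaF/F libraries, and sex is not among the labels. Among the libraries with such reads S100a11 was at 82.9 to 111.2 CPM in WT (n = 3) and 25.7 CPM in Pdgfra-Cre:LmnaF/F (n = 1). In those without it was at 83.9 CPM in WT (n = 1) and 23.5 to 40.7 CPM in Pdgfra-Cre:LmnaF/F (n = 3). S100a11 was lower in Pdgfra-Cre:LmnaF/F within each kind. S100a10 was likewise at 275.2 to 341.0 against 150.0 CPM with Y-linked reads, and at 433.5 against 192.6 to 304.2 CPM without.

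For levels between genes, CPM was divided by the exon length of each gene in GENCODE M21 (CPM per kb). That length merges the exons of all annotated transcripts, 3731 bases for Anxa2 and 1212 for S100a10. Transcripts present in these cells may be shorter, unevenly between genes, so the order, percentiles and shares on this scale depend on the annotation. By CPM alone the WT means were 917.2 for Anxa2 and 339.8 for S100a10. In WT fibroblasts S100a10 was the most abundant of the 10 genes on this scale, at 280.4 ± 56.1 CPM per kb (SD, n = 4). Anxa2 followed at 245.8 ± 50.1, S100a6 at 236.7 ± 47.8, S100a16 at 211.0 ± 42.9, S100a11 at 183.7 ± 26.1 and Anxa6 at 154.0 ± 18.2 CPM per kb. These 6 genes overlapped each with its neighbour in the order. Anxa6 was above S100a13 (77.9 ± 21.1 CPM per kb) in every WT library without overlap, and S100a13 and Anxa1 (75.2 ± 14.6) were not separated. S100a1 at 39.97 ± 7.62 and S100a4 at 5.77 ± 1.07 CPM per kb closed the order, each without overlap with the gene above it. S100a10 stood above 99.2% of the genes tested in WT, S100a1 above 92.1% and S100a4 above 50.35%, and the other 7 genes above 96.2% to 99.05%.

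In Pdgfra-Cre:LmnaF/F the order per kb was different. S100a6 was the most abundant at 327.3 ± 62.4 CPM per kb (SD, n = 4), ahead of S100a10 at 177.5 ± 53.6, and S100a11 fell to 62.0 ± 16.4. As a share of the summed CPM per kb of the 7 S100 genes, S100a11 made up 17.2%, 20.4%, 14.6% and 19.15% in WT replicates 1 to 4 and 7.97%, 8.19%, 7.38% and 5.72% in Pdgfra-Cre:LmnaF/F. S100a6 made up 22.5%, 20.2%, 26.6% and 21.6% in WT and 37.5%, 31.45%, 41.4% and 46.2% in Pdgfra-Cre:LmnaF/F. Both shares were without overlap between the groups, and they are not independent of each other because the shares sum to a whole. The summed level itself was 936.9 to 1136 CPM per kb in WT and 622.8 to 971.6 in Pdgfra-Cre:LmnaF/F. These shares were taken after the values were seen.

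**Figure D3:**
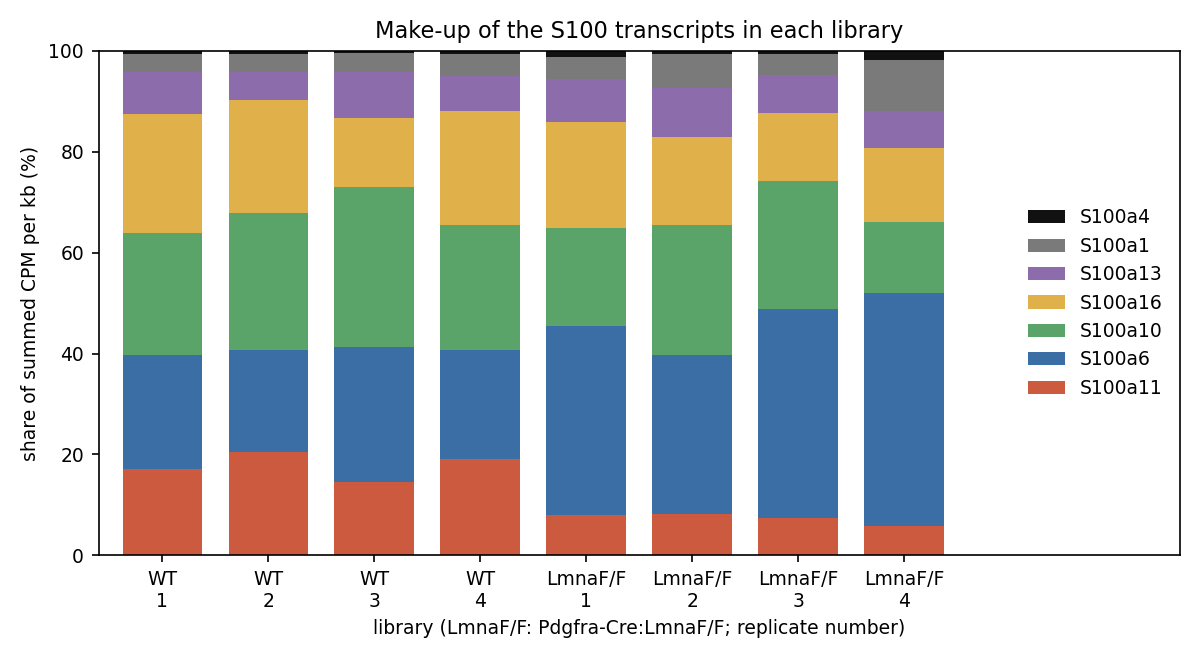
Share (%) of each of the 7 S100 genes in their summed CPM per kb, one bar for each library, 4 WT on the left and 4 Pdgfra-Cre:LmnaF/F on the right. The lowest block, S100a11, is 14.6% to 20.4% in WT and 5.72% to 8.19% in Pdgfra-Cre:LmnaF/F, and the block above it, S100a6, is 20.2% to 26.6% and 31.45% to 46.2%.

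The other S100 and annexin genes were taken by nomenclature. Of 16 listed, 9 passed the filter (S100a7a, S100b, Anxa3, Anxa4, Anxa5, Anxa7, Anxa8, Anxa9 and Anxa11), and none was called by edgeR, where DESeq2 called 1. At an unadjusted p under 0.05 there were 2, Anxa4 and Anxa5, where 11.9% of all genes reached it. All 9 had fitted fold changes below 0, and with Anxa2 and Anxa6 so had 9 of the 10 annexin genes tested, with a median of -0.62 on the log2 scale. Of all 13036 genes, 6279 had a fold change below 0.

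Anxa5, the phosphatidylserine-binding annexin that is used to stain dying cells, was the most abundant annexin in WT at 600.6 CPM per kb. It was at 1009, 670.2, 1272 and 1317 CPM in WT and at 664.5, 838.5, 355.5 and 329.4 CPM in Pdgfra-Cre:LmnaF/F. The groups overlapped through WT replicate 2, which lay below Pdgfra-Cre:LmnaF/F replicate 2. The log2 fold change was -0.96 (SE 0.31, 95% interval -1.63 to -0.30, adjusted p = 0.209, edgeR), and the adjusted p was 0.0443 with DESeq2 and 0.0432 with no filter on low counts. Anxa4 was at 77.2 to 134.9 CPM in WT and 25.4 to 80.4 CPM in Pdgfra-Cre:LmnaF/F, with a log2 fold change of -0.75 (SE 0.33, adjusted p = 0.386, edgeR). Anxa3 (-0.56), Anxa8 (-1.0), Anxa9 (-0.72), Anxa11 (-0.69) and Anxa7 (-0.03) had intervals of their log2 fold change that included 0. S100a7a (-1.76, SE 1.38) and S100b (-0.09, SE 1.47) rest on at most 56 reads per library. Single libraries moved several of these values. S100a7a was at -4.16 without Pdgfra-Cre:LmnaF/F replicate 1 and -0.97 without WT replicate 3. Anxa9 was at -1.84 without Pdgfra-Cre:LmnaF/F replicate 4, and Anxa3 was at -0.22 without WT replicate 3.

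**Figure D4:**
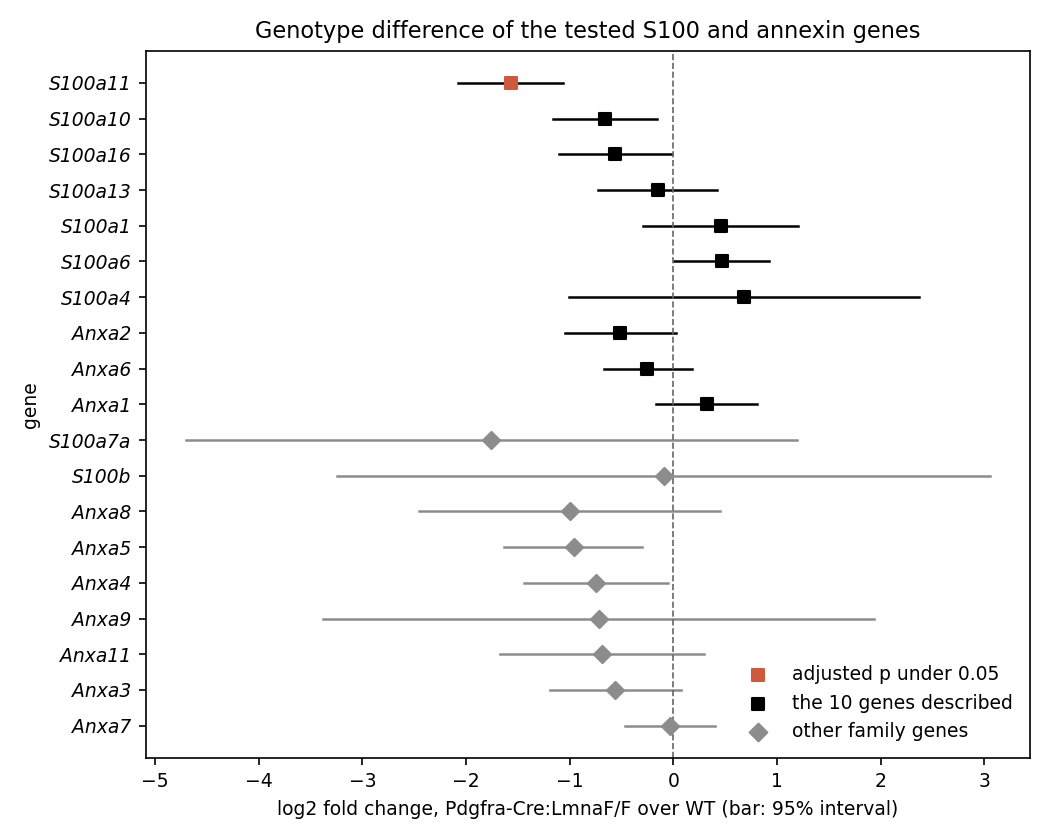
Log2 fold change of Pdgfra-Cre:LmnaF/F over WT for the 19 tested S100 and annexin genes, with 95% intervals from edgeR. Squares are the 10 genes described, diamonds the other 9, and the only coloured square, with an adjusted p under 0.05, is S100a11 at -1.57.

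All 7 S100 genes described lie on chromosome 3 after Lmna, the gene whose alleles were exchanged for floxed ones. The first 5 form the S100 cluster at 2.001 Mb (S100a1), 2.004 Mb (S100a13), 2.027 Mb (S100a16), 2.094 Mb (S100a4) and 2.103 Mb (S100a6) from the end of Lmna. S100a11 and S100a10 lie at 5.011 and 5.045 Mb, side by side on the plus strand with 28792 bases between them. A stretch of the chromosome that came with the floxed alleles would be homozygous in Pdgfra-Cre:LmnaF/F and absent from WT, so its effect and that of the deletion cannot be told apart in this design. The 3 annexin genes are elsewhere, Anxa1 at chr19:20373428-20390944, Anxa2 at chr9:69453620-69491795 and Anxa6 at chr11:54979108-55033445 (GRCm38).

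Within 5 Mb of Lmna on either side 111 genes other than Lmna were tested and none was called by edgeR, while 15.3% of them had an unadjusted p under 0.05. On the rest of chromosome 3 it was 5 of 524 genes and 11.5%, and on all other chromosomes 47 of 12370 genes and 11.8%. Of the 111 genes near Lmna 70 had a fold change below 0 (median -0.12 on the log2 scale), as had 248 of the 524 on the rest of the chromosome (median 0.05) and 5947 of the 12370 elsewhere (median 0.03). It was 61 of 89 genes within 2 Mb and 133 of 217 within 10 Mb. Within 10 Mb there were 3 called genes among 217, S100a11, Hist2h2ac and Selenbp2, the last 2 named because the count is small. S100a11 lies 5.011 Mb from Lmna, just past the 5 Mb edge, so these 3 genes are among the 5 called on the rest of the chromosome and the count of 0 rests on where the edge was set. Among the S100 genes, S100a11 alone was called. In the cluster near 2 Mb, S100a6 had a log2 fold change of 0.47 and S100a16 one of -0.56 (adjusted p 0.406 and 0.405, edgeR), and at 5 Mb the neighbours S100a11 and S100a10 were at -1.57 and -0.66 (adjusted p 0.0146 and 0.271, edgeR). The ratio of S100a11 to S100a10 counts was 0.301, 0.315, 0.194 and 0.326 in WT and 0.173, 0.134, 0.122 and 0.171 in Pdgfra-Cre:LmnaF/F, without overlap. This ratio was chosen after the values were seen and restates the difference between the 2 fold changes.

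**Figure D5:**
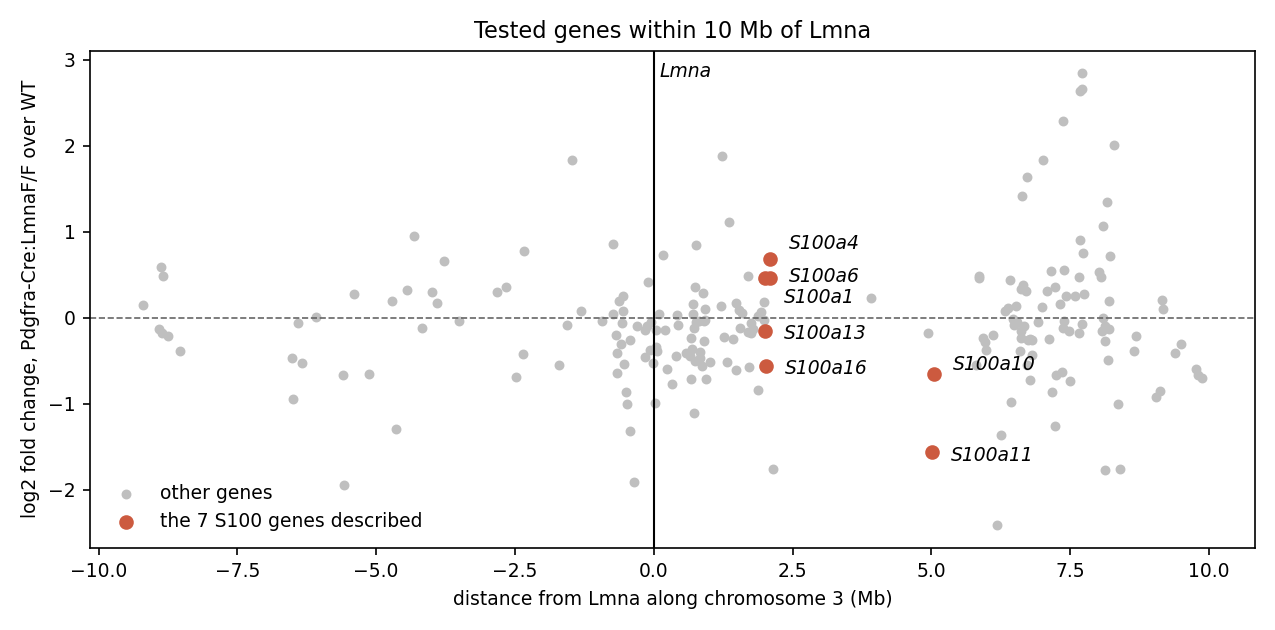
Log2 fold change of Pdgfra-Cre:LmnaF/F over WT against distance from Lmna along chromosome 3, in Mb, for the tested genes within 10 Mb other than Lmna itself. Coloured points are the 7 S100 genes described: 5 sit together near 2 Mb, between -0.56 and 0.68, and S100a11 (-1.57) and S100a10 (-0.66) sit near 5 Mb.

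Partners of these proteins were counted on lists written from general knowledge, and each count is to be read against all 13036 genes, of which 0.407% were called, 11.9% had an unadjusted p under 0.05 and 6279 had a fold change below 0. Of 6 genes of the plasmin system reported here, which annexin A2 and S100A10 serve at the cell surface, none was called by edgeR and 2 had an unadjusted p under 0.05. Serpine2, which encodes a protease inhibitor that acts on thrombin and plasminogen activators, was at 383.8, 463.4, 245.7 and 478.8 CPM in WT and at 780.4, 742.8, 389.7 and 476.8 CPM in Pdgfra-Cre:LmnaF/F. Replicates 1 and 2 of Pdgfra-Cre:LmnaF/F were above every WT library and replicates 3 and 4 lay within the WT range (log2 fold change 0.61, SE 0.27, adjusted p = 0.396, edgeR). Plgrkt, which encodes a plasminogen receptor of the cell surface, was at 11.2 to 23.9 CPM in WT and 23.8 to 30.8 CPM in Pdgfra-Cre:LmnaF/F, with a log2 fold change of 0.68 (SE 0.32, adjusted p = 0.420, edgeR).

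Among 15 genes of membrane repair and of the scaffolds that annexins bind, none was called by edgeR, 3 had an unadjusted p under 0.05 and 12 had a fold change below 0. Ahnak2, whose product belongs to the AHNAK scaffold family, was at 91.2 to 131.5 CPM in WT and 60.9 to 82.1 CPM in Pdgfra-Cre:LmnaF/F, without overlap, with a log2 fold change of -0.64 (SE 0.20, adjusted p = 0.196, edgeR). Cav1, the main caveolin of fibroblasts, had a log2 fold change of -0.71 (SE 0.30, adjusted p = 0.360, edgeR). Of 13 tested genes whose products bind S100 proteins inside the cell, none was called by edgeR and 2 had an unadjusted p under 0.05. They were Myh9, the nonmuscle myosin heavy chain whose filaments S100A4 takes apart (-0.60, adjusted p = 0.307), and the cochaperone gene Stip1 (-0.61, adjusted p = 0.373).

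Of 3 tested genes of surface receptors for S100 proteins or annexin A1, none was called by edgeR and none had an unadjusted p under 0.05. Ager, which encodes the receptor RAGE, was at 1.66 to 23.3 CPM in WT and 2.58 to 6.72 CPM in Pdgfra-Cre:LmnaF/F (log2 fold change -1.47, adjusted p = 0.466, edgeR), and the fold change was -0.85 without WT replicate 3, its highest library. Bsg, which encodes the S100A9 receptor basigin, had a log2 fold change of -0.27 (adjusted p = 0.603, edgeR). Of 19 other EF-hand genes tested, 1 was called lower, none was called higher and 3 had an unadjusted p under 0.05, beside 0.238% called lower and 11.9% of all genes. The gene called lower was Efhd1, a calcium sensor of mitochondria, at 133.9, 129.3, 119.4 and 147.4 CPM in WT and 46.8, 46.2, 9.09 and 32.7 CPM in Pdgfra-Cre:LmnaF/F. Its log2 fold change was -1.98 (SE 0.37, adjusted p = 0.0368, edgeR), and the adjusted p was 0.0824 without WT replicate 1, 0.0756 without WT replicate 2, 0.0533 without WT replicate 3, 0.0822 without WT replicate 4 and 0.0604 without Pdgfra-Cre:LmnaF/F replicate 2. Calm3, one of the calmodulin genes, had a log2 fold change of -0.57 (SE 0.19, adjusted p = 0.229, edgeR) with no overlap between the groups, and an adjusted p of 0.0400 with DESeq2.

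The gene with the nearest profile over the 8 libraries was sought for each of the 10 genes, by the mean absolute difference of centred log2 CPM. For S100a11 it was Tmem100, at 0.16, where the median gene was at 0.89. Tmem100 was itself called between the genotypes, and the centring runs over both groups, so these distances include the genotype difference of S100a11. For the other S100 genes it was Rpl26 (S100a1, 0.14), Miip (S100a4, 0.12), Mtch2 (S100a6, 0.08), Adam17 (S100a10, 0.09), Stk25 (S100a13, 0.09) and Syt11 (S100a16, 0.11). For the annexins it was Mtm1 (Anxa1, 0.08), Zfp74 (Anxa2, 0.11) and Cox10 (Anxa6, 0.04). Among the 10 genes themselves the closest pair was S100a6 and Anxa1, at 0.12, with 8 genes nearer to S100a6 and 7 nearer to Anxa1. With 13035 candidates and 8 libraries, near profiles are a description of these libraries.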

How the data were processed

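RNA that had a RIN above 8 was depleted of ribosomal RNA, made into stranded libraries and read as 150 bp pairs. The authors used HISAT2 for alignment to mm10 and featureCounts for counting on GENCODE annotation. What they deposited is a raw count for each symbol in each library, and the RUV factors named in the methods of the study are not in these counts. Each of the 8 libraries lists 18957 genes, with totals of 2080555 to 12502949 counts. A count of 3 was taken as the floor, at 0.25 to 1.51 CPM by library. Intervals cover counting and library spread only, and PCR copies were not removed by molecular identifiers. The sources do not say whether each library came from a separate mouse, so p values measure the spread between these libraries, which may be technical.

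Counts were scaled with TMM factors to CPM and genes were kept with filterByExpr. The main comparison was edgeR 4.0.16 (R 4.3.3), in its quasi-likelihood form, with genotype alone in the model and Benjamini-Hochberg adjustment over 13036 genes. Genes at an adjusted p under 0.05 were called. Alternatives were DESeq2 1.42.0, RLE factors, no filter, at least 10 counts in every library, 1 RUVr factor, the replicate block, a Y-linked covariate and leaving out each library. Leaving out WT replicate 2 with Pdgfra-Cre:LmnaF/F replicate 4 was added after the data were seen. The procedure was run on simulated counts with known folds, whose recovery is not reported here. False calls there could exceed the nominal rate when few genes were called, from genes of extreme spread. Ratios, shares and tables were made in Python 3.11.15.

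The named genes are the 10 genes, every other tested S100 and annexin gene, the called genes and the 2 lowest p of each partner list, Lmna, and the gene with the nearest profile to each of the 10. Members and lists were chosen with earlier results of these data known. Lengths and positions are from GENCODE M21 (GRCm38), in which 18918 of the listed symbols were found, and upstream sequences from RefSeq on GRCm38.p6. S100a5, S100z, Anxa13 and Fpr2, and protein sequences, were not analysed here. Genes of the partner lists under the filter were not tested, and 1 further partner gene is not reported here.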

Additional observations from a re-analysis of the deposited data

Results flagged for a closer look

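Of 60 sets of 4 libraries examined (30 genes in 2 genotypes), 4 held a library whose gap to the nearest other was past Dixon's 95% limit for 4 values. Chance gives about 1 in 20. S100a7a was at 8.95 CPM in WT replicate 3, with the other WT libraries at 2.01 to 2.62 CPM, and at 4.03 CPM in Pdgfra-Cre:LmnaF/F replicate 1, with the others at 0 to 0.50 CPM. Anxa4 was at 134.9 CPM in WT replicate 3, with the others at 77.2 to 86.5 CPM. Stip1 was at 91.8 CPM in Pdgfra-Cre:LmnaF/F replicate 2, with the others at 49.3 to 52.8 CPM. None of the 10 S100 and annexin genes described had such a library.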

How the results depend on the processing

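S100a11 was lower in Pdgfra-Cre:LmnaF/F in all 16 alternatives, with log2 fold changes from -1.71 to -1.45. The number of the 10 genes called was 0 to 1 when a library was left out, 0 without WT replicate 4, and 1 in every other alternative. Lmna remained called in all 16, from -1.90 to -1.56. Over all genes the 53 calls became 309 with DESeq2, 274 without the filter, 83 with 1 RUVr factor, 119 with the Y-linked covariate, and 13 to 76 with a library left out. Of the other S100 and annexin genes 1 was called with DESeq2 and 1 without the filter. Of the EF-hand genes 2 were called with DESeq2, 0 without WT replicate 2 and Pdgfra-Cre:LmnaF/F replicate 4 together, and 0 to 1 with a library left out.

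Fold changes that changed sign were those of Anxa7 (-0.15 to 0.10 with a library left out, 0.10 without WT replicate 3 and 0.03 without Pdgfra-Cre:LmnaF/F replicate 3) and S100b (-0.84 to 0.82 with a library left out, 0.47 with 1 RUVr factor, 0.78 with the replicate block and 2.32 with the Y-linked covariate). The cause was not tested. S100a4 and 4 other genes had no value at 10 counts in every library.

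No pairing by replicate number was seen over all genes tested. Deviations of same-numbered libraries from their group means correlated at -0.03 to 0.04, and 1 number of 4 was its own best match. A pairing that touches few genes would not show in such a correlation, so pairing is not excluded. With the replicate block 36 genes were called, S100a11 among them.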

Other observations

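The genes for calprotectin, S100a8 and S100a9, which neutrophils and monocytes express, did not pass the filter. S100a8 had 0, 0, 0 and 6 reads in WT replicates 1 to 4 and 0, 0, 30 and 50 in Pdgfra-Cre:LmnaF/F. S100a9 had 0 reads in every WT library and 0, 27, 0 and 22 in Pdgfra-Cre:LmnaF/F. The reads of the pair came together in Pdgfra-Cre:LmnaF/F replicate 4 alone, the library with the most leukocyte marker reads. S100a14 had 1, 0, 1 and 7 reads in WT and 0 in every Pdgfra-Cre:LmnaF/F library, and S100a2, S100a3, S100g and Anxa10 had at most 23 reads in any library.

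As a share of the summed CPM per kb of the 10 annexin genes tested, Anxa1 made up 5.705% to 7.05% in WT and 8.52% to 20.9% in Pdgfra-Cre:LmnaF/F, and Anxa7 2.44% to 2.91% and 3.12% to 5.05%, both without overlap between the groups. The shares sum to a whole and so depend on each other. The level of Anxa7 itself was 185.2 CPM in WT and 181.2 CPM in Pdgfra-Cre:LmnaF/F (log2 fold change -0.03), and the 20.9% of Anxa1 is from Pdgfra-Cre:LmnaF/F replicate 4, without which its log2 fold change was 0.09. The summed level was 950.9 to 1362 CPM per kb in WT and 543.0 to 983.0 in Pdgfra-Cre:LmnaF/F. Anxa5, the largest single share, made up 39.7% to 57.0% in WT and 28.9% to 48.0% in Pdgfra-Cre:LmnaF/F.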
